A study of Mus musculus with 240 samples.

Results

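Oligodendrocyte precursor cells (OPCs) that have left the cell cycle and begun to become oligodendrocytes switch on a small set of genes before the myelin genes, and 8 of these genes are described here in a mouse glioma model: Gpr17, Bcas1, Enpp6, Neu4, Tcf7l2, Myrf, Nkx6-2 and Zfp488. They were taken by symbol from the deposited table of 34623 genes, which holds all 8. The rule uses the symbol alone. RNA came from tdT-positive cells cut out of frozen mouse brain sections by laser-capture microdissection. The mutant animals carry the genotype Trp53-/- Nf1-/- (CKO) and the controls are wild-type (WT), with time in days from the start of tamoxifen treatment (dpi). Bulk libraries came from 37 animals: 7 CKO and 5 WT at 12 dpi, 7 CKO and 5 WT at 90 dpi, and 7 tumours of the mutant genotype and 6 WT at 150 dpi. Small libraries came from CKO mice only, at 12 and 90 dpi. At each time 56 held 10 cells captured together (10-cell) and 40 held the same amount from a mixed pool of captured cells (pool-and-split), in 4 sets of libraries named by sex and a number. The labels give neither the promoter that drives the recombinase nor the ages of the animals, and they do not say whether the libraries of a set share an animal. Each of the 37 bulk samples carries its own animal number, and p-values over sets measure only the spread between sets.

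OPCs persist in the adult brain, where they divide and give rise to myelinating oligodendrocytes. Between the 2 states lies a committed precursor, which turns on the receptor Gpr17 and then the early oligodendrocyte genes Bcas1 and Enpp6, while the transcription factors Tcf7l2 and Myrf prepare the myelin programme. The committed stage is short-lived, since its cells either go on to mature or die.

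Gpr17 (ENSMUSG00000052229, chromosome 18, 31942997 to 31949636 on GRCm38) encodes a G protein-coupled receptor of committed precursors that must be turned off again for myelination, and it lies inside Lims2 on the opposite strand. Bcas1 (ENSMUSG00000013523, chromosome 2, 170346991 to 170427845) encodes a cytoplasmic and myelin-associated protein that marks newly forming oligodendrocytes. Enpp6 (ENSMUSG00000038173, chromosome 8, 46986887 to 47096762) encodes a membrane-bound phosphodiesterase that releases choline phosphate and marks newly formed oligodendrocytes. Neu4 (ENSMUSG00000034000, chromosome 1, 94020451 to 94028334) encodes a sialidase, an enzyme that removes sialic acid from glycans.

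Among the transcription factors, Tcf7l2 (ENSMUSG00000024985, chromosome 19, 55741810 to 55933654) is a nuclear effector of Wnt signalling that peaks in newly formed oligodendrocytes. Myrf (ENSMUSG00000036098, chromosome 19, 10208272 to 10240748) is a membrane-anchored factor needed to start and keep up myelin gene expression. Nkx6-2 (ENSMUSG00000041309, chromosome 7, 139579376 to 139582797) is a homeodomain factor of the oligodendrocyte lineage. Zfp488 (ENSMUSG00000044519, chromosome 14, 33967070 to 33978764) encodes a zinc finger factor that works with Olig2. All 8 are protein-coding genes. Apart from Gpr17, antisense or intronic genes overlap Bcas1, Enpp6 and Tcf7l2, and the end of Inpp5a overlaps Nkx6-2. Whether counting used the strand is not given in the sources used here, so reads of these pairs may be shared.

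The sequences just upstream of 3 of the genes are shown because the levels of these genes in tumours moved apart, Zfp488 and Tcf7l2 rising and Enpp6 falling against CKO cells. Each is the 250 bases before the RefSeq start (GRCm38.p6), 5' to 3' on the gene's strand, with CG dinucleotides in capitals. The 30 bases after the start were found in an annotated transcript of the gene for Zfp488 and Enpp6, but not for Tcf7l2. Zfp488 is at chr14:33978765-33979014 on the minus strand, Tcf7l2 at chr19:55741560-55741809 on the plus strand and Enpp6 at chr8:46986637-46986886 on the plus strand.
Zfp488: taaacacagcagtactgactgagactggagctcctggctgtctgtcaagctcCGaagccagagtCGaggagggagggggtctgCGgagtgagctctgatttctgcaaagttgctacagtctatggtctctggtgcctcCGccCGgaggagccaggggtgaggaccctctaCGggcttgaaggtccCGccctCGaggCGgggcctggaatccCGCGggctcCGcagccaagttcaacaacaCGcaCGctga
Tcf7l2: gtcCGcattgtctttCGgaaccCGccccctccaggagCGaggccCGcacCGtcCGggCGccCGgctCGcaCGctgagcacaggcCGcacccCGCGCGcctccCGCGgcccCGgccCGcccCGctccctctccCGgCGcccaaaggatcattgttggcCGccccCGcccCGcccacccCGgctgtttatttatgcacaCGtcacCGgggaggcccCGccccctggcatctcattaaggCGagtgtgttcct
Enpp6: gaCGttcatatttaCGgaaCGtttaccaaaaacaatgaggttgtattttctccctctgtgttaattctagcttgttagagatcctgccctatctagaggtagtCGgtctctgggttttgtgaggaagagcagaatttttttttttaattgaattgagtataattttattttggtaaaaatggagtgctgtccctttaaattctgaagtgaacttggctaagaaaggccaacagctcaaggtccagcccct
The Tcf7l2 window held 30 CG dinucleotides at a GC content of 72.8%, that of Zfp488 14 at 61.6% and that of Enpp6 4 at 38.4%. Over 32851 RefSeq promoters of the same length the medians were 6 CG dinucleotides and 52.4% GC, and 17.9% of promoters held 20 or more. For each of 3 motifs 1 string was searched, ATCAAAG for TCF/LEF, ACAAAG for SOX and CAGCTG for the E-box. None of these strings occurred on either strand of the 3 windows. Other forms of the motifs were not searched, so the windows may hold such sites. Of all promoters, 3.21%, 16.5% and 13.0% held these strings. A total of 5 of the 8 genes matched the promoter table. The windows of Neu4 (5 CG dinucleotides) and of Nkx6-2 (26) also held none of the strings, and a second start of Tcf7l2 held 1 match of the SOX string.

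Total counts, in M (mega) counts, ran from 0.0937 to 23.2 M in bulk libraries (median 10.0 M), from 1.64 to 6.49 M in 10-cell libraries (median 4.24 M) and from 1.91 to 5.16 M in pool-and-split libraries (median 3.80 M). Bulk library medians were 13.7 M for CKO and 3.47 M for WT at 12 dpi. At 90 dpi they were 9.87 and 12.9 M, and at 150 dpi 10.3 M for tumours and 4.19 M for WT. All 7 tumours, 3 CKO animals at 90 dpi and 1 at 12 dpi had 2 summed libraries, and 0 WT animals did. With only the deepest library of each animal, no bulk call of the 8 genes changed. The part of depth in the comparisons was not tested. Nf1 ran from 176 to 216 CPM, counts per M counts of the library, in CKO and from 261 to 357 CPM in WT animals at 12 dpi. It overlapped between the genotypes at 90 and 150 dpi, and Trp53 overlapped between the genotypes at every time. OPC markers were present in every bulk group, with Pdgfra between 194 and 2629.6 CPM. Bulk samples were not pure, since 12 neuron markers summed to 7552 to 16932 CPM in every animal but the tumours. In bulk samples fewer committed cells and less RNA per cell cannot be told apart. Among the libraries of CKO_20647 at 90 dpi, 1 of the 2 stood apart, with 186 against 629.7 CPM summed over the 8 genes, 19889.7 against 9157 CPM of neuron markers, and no Myrf count against 478. WT_21167 at 90 dpi had only 93694 counts. Leaving out that library and that animal, an alternative chosen after seeing the data, changed the call of none of the 8 genes in any bulk comparison.

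Per kilobase of exon, a scaling for length alone, Gpr17 was the highest of the 8 in each of the 5 groups without a tumour. Whether reads cover the exons evenly was not checked, so the order of the genes holds for this scaling only. In WT cells at 12 dpi it stood at 68.0 ± 13.8 CPM per kilobase (SD, n = 5), followed by Bcas1 at 37.3 ± 11.9. Neu4 (15.8 ± 2.33), Zfp488 (15.1 ± 2.36) and Enpp6 (13.8 ± 2.51) formed a middle group whose spreads overlapped. Before division by length Enpp6 ran from 64.6 to 108 CPM, Neu4 from 57.2 to 84.4 and Zfp488 from 49.5 to 73.4 in these animals. Myrf (5.20 ± 0.575) and Tcf7l2 (4.64 ± 0.708) lay within each other's spread, and Nkx6-2 was lowest at 1.31 ± 0.530. In tumours the order was headed by Bcas1, at 159.9 ± 64.0 CPM per kilobase (SD, n = 7), ahead of Gpr17 (48.6 ± 28.6) and Zfp488 (29.2 ± 9.38), whose spreads overlapped. Enpp6, at 3.24 ± 4.16 CPM per kilobase, had dropped to the place before Nkx6-2 (0.604 ± 0.425), and its spread overlapped those of Myrf and Tcf7l2.

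**Figure D1:**
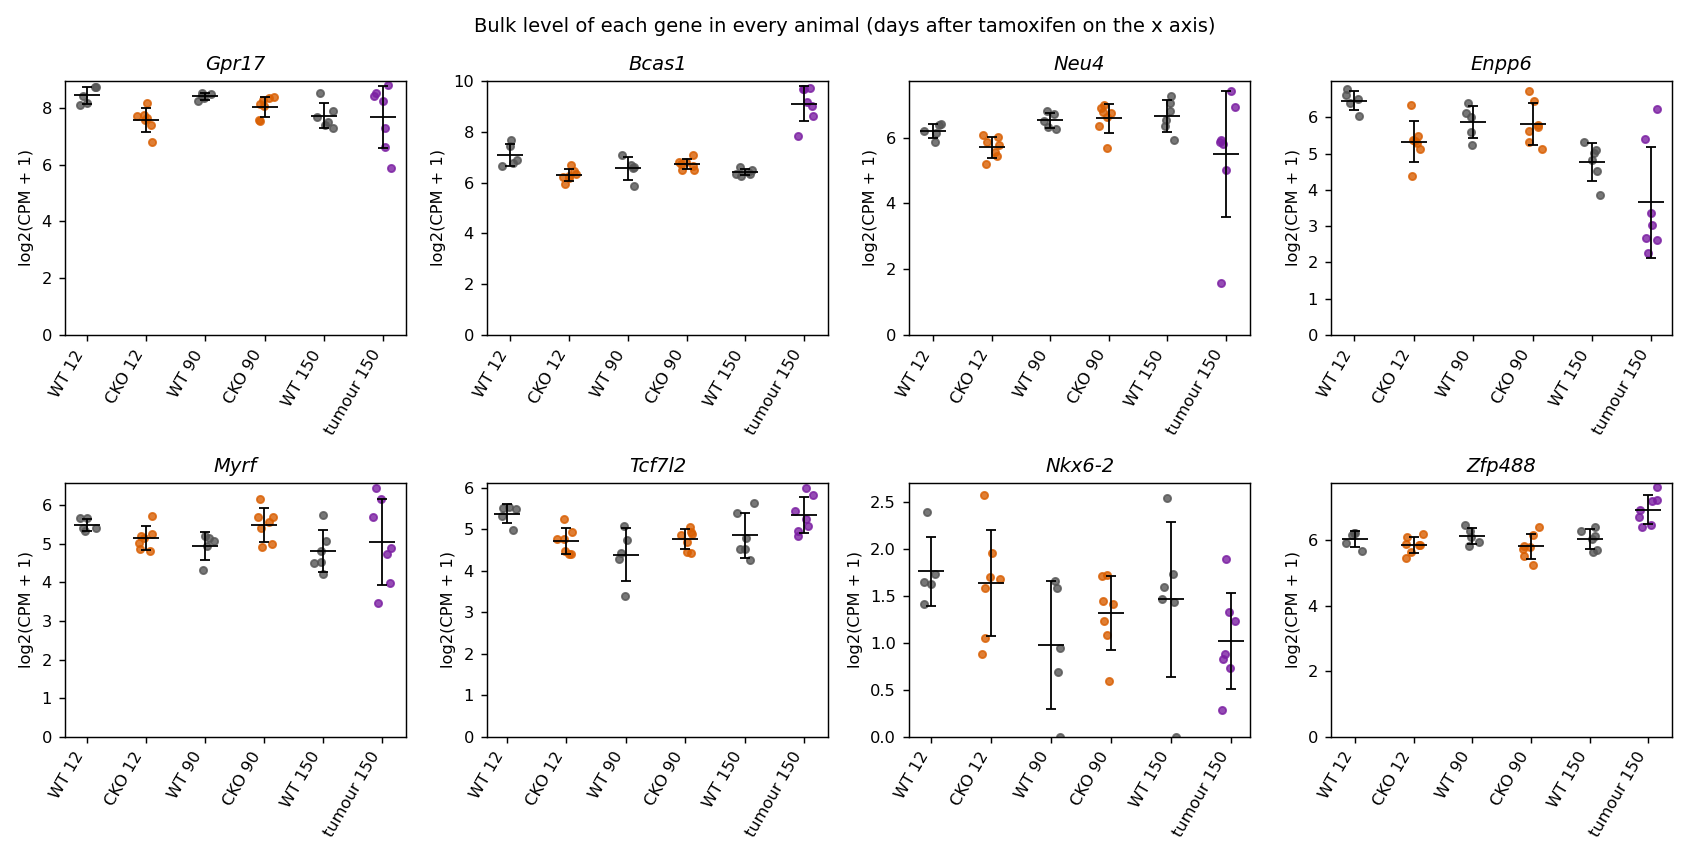
Level of each of the 8 genes in every bulk animal as log2(CPM + 1), with 1 point per animal and the mean ± SD in black, for WT (grey), CKO (orange) and tumours (purple) at 12, 90 and 150 days. Bcas1 in tumours lies above every animal of the other groups, and Neu4, Enpp6 and Myrf scatter more between tumours than between animals of any other group.

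At 12 dpi the question was whether mutant cells already differ in these genes. All 8 had a lower fitted level in CKO than in WT animals, with a median log2 difference of -0.55 against 0.03 over all 16349 genes tested, but with edgeR 0 of 8 passed an adjusted p of 0.05. At that threshold 0.0183% of all genes passed. An unadjusted p under 0.05 was reached by 4 of the 8, Bcas1, Tcf7l2, Gpr17 and Enpp6, and by 4.85% of all genes. DESeq2 called 0 of the 8 (13 genes in all).

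Bcas1 stood at 202, 175, 101, 110.0 and 117 CPM in the 5 WT animals and at 60.2 to 103 CPM (median 75.2) in the 7 CKO animals. The groups met only at the lowest WT and the highest CKO animal. Its log2 difference was -0.79 (SE 0.22, unadjusted edgeR p 0.00095, adjusted p 0.597). The receptor gene Gpr17 stood at 290.4, 428, 278, 425 and 345 CPM in WT and at 110.4 to 291 CPM (median 199) in CKO animals. All CKO animals but the highest lay below the WT range. Its log2 difference was -0.82 (SE 0.31, edgeR adjusted p 0.997).

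Enpp6, the choline-releasing enzyme, stood at 96.6, 83.8, 64.6, 89.1 and 108 CPM in WT and at 19.6 to 79.4 CPM (median 39.8) in CKO animals. CKO_21724, at 79.4 CPM, was the only one to reach the WT range. The log2 difference was -1.07 (SE 0.49, edgeR adjusted p 0.997). Tcf7l2, the Wnt effector, stood at 44.7, 43.9, 38.5, 30.8 and 45.6 CPM in WT and at 20.1 to 36.8 CPM (median 26.0) in CKO animals, where only the lowest WT animal fell within the CKO range. Its log2 difference was -0.60 (SE 0.22, edgeR adjusted p 0.987).

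The sialidase gene Neu4 ran from 57.2 to 84.4 CPM in WT and from 36.0 to 66.3 CPM in CKO animals (log2 difference -0.49, 95% interval -1.34 to 0.35). Myrf and Zfp488 overlapped widely, at log2 differences of -0.24 (interval -0.87 to 0.39) and -0.15 (-0.53 to 0.23). Nkx6-2 stayed under 5 CPM in every animal, and its log2 difference of -0.06 ran from -0.34 to 0.23 over the alternatives. When only the 12 dpi groups were fitted, with their own estimate of the spread, 4 of the 8 were called lower: Gpr17 (log2 -0.90), Enpp6 (-1.16) and Neu4 (-0.60), each at an edgeR adjusted p of 0.0335, and Bcas1 (-0.85, 0.0480). In that fit 0.638% of genes were called. Over all alternatives and left-out animals the edgeR or DESeq2 adjusted p of these 4 ran from 0.0335 to 1.

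Other lists did not pass at 12 dpi either. Among 15 further genes of committed and newly formed oligodendrocytes 12 were lower and 0 were called (median -0.36), the largest difference being Cnksr3 at -1.33 (SE 0.55). The 19 OPC genes had a median of 0.05 and the 17 genes of myelinating oligodendrocytes one of -0.12, with 0 called in each. Endothelial markers were lower for 10 of 10 genes (median -0.40, 0 called), summing to 173 to 351 CPM in CKO and 168 to 434.5 CPM in WT animals. Neuron markers summed to 7552 to 10394 CPM in CKO and 8721 to 9629 CPM in WT animals. The part of other cell types in the differences at 12 dpi was not tested.

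At 90 dpi the 8 genes did not share a direction. Of the 8 genes 5 had a higher and 3 a lower fitted level in CKO than in WT animals (median 0.07). With edgeR 0 passed and 0 had an unadjusted p under 0.05, and DESeq2 called 0. Over all genes 0.0489% passed with edgeR, and 850 of 16349 had an unadjusted p under 0.05. Gpr17 stood at 369.7, 356, 338, 329 and 303 CPM in WT and at 185 to 332 CPM (median 281) in CKO animals (log2 difference -0.32, 95% interval -0.93 to 0.29). Bcas1 ran from 56.9 to 137 CPM in WT and from 88.4 to 134 CPM in CKO animals, a log2 difference of 0.07 (interval -0.37 to 0.50). Myrf had the largest difference at this time, with 19.0, 32.6, 30.0, 34.3 and 36.0 CPM in WT and 29.2 to 70.8 CPM (median 46.8) in CKO animals (log2 0.52, interval -0.14 to 1.18). The genotypes overlapped for all 8 genes.

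Change over time was tested within each genotype. In CKO cells 0 of 8 passed between 12 and 90 dpi, where 0% of all genes did, and 2 had an unadjusted p under 0.05: Neu4, at a median of 53.9 CPM at 12 dpi and 108 CPM at 90 dpi (log2 0.92, SE 0.39), and Bcas1, at medians of 75.2 and 106 CPM (0.41, SE 0.20). Of all 16349 genes 696 had an unadjusted edgeR p under 0.05. DESeq2 called 0 of the 8 and 2 genes in all. In WT cells over the same time 0 of 8 passed (0.00612% of all genes). An unadjusted edgeR p under 0.05 was reached by 795 of all 16349 genes and by 1 of the 8. This was Tcf7l2, with 9.48, 18.6, 20.4, 25.9 and 32.7 CPM at 90 dpi against 30.8 to 45.6 CPM at 12 dpi (log2 -0.77, SE 0.25, edgeR adjusted p 0.947). The lowest value belongs to the shallow WT_21167. When only these WT groups were fitted, Tcf7l2 was called (log2 -0.74, edgeR adjusted p 0.0340, 0.0340 to 1 over all alternatives), along with 2.08% of all genes. DESeq2 called 0 of the 8 and 9 genes in all.

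The genotype difference itself was compared between 12 and 90 dpi. With edgeR 0 of 8 passed (0% of all genes), and DESeq2 called 0 of the 8 (6 genes in all). An unadjusted edgeR p under 0.05 was reached by 589 of all 16349 genes and by 2 of the 8. Those 2 were Bcas1 (log2 difference between the differences 0.86, SE 0.31) and Tcf7l2 (0.78, SE 0.31). From 90 to 150 dpi in WT cells 0 of 8 passed (0.0183% of all genes), and DESeq2 called 20 genes and 0 of the 8. Of all 16349 genes 1350 had an unadjusted edgeR p under 0.05, and of the 8 only Enpp6 did (0.0361). Enpp6 ran from 36.9 to 82.6 CPM at 90 dpi and from 13.6 to 38.5 CPM at 150 dpi (log2 -1.14, SE 0.52, edgeR adjusted p 0.567).

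**Figure D2:**
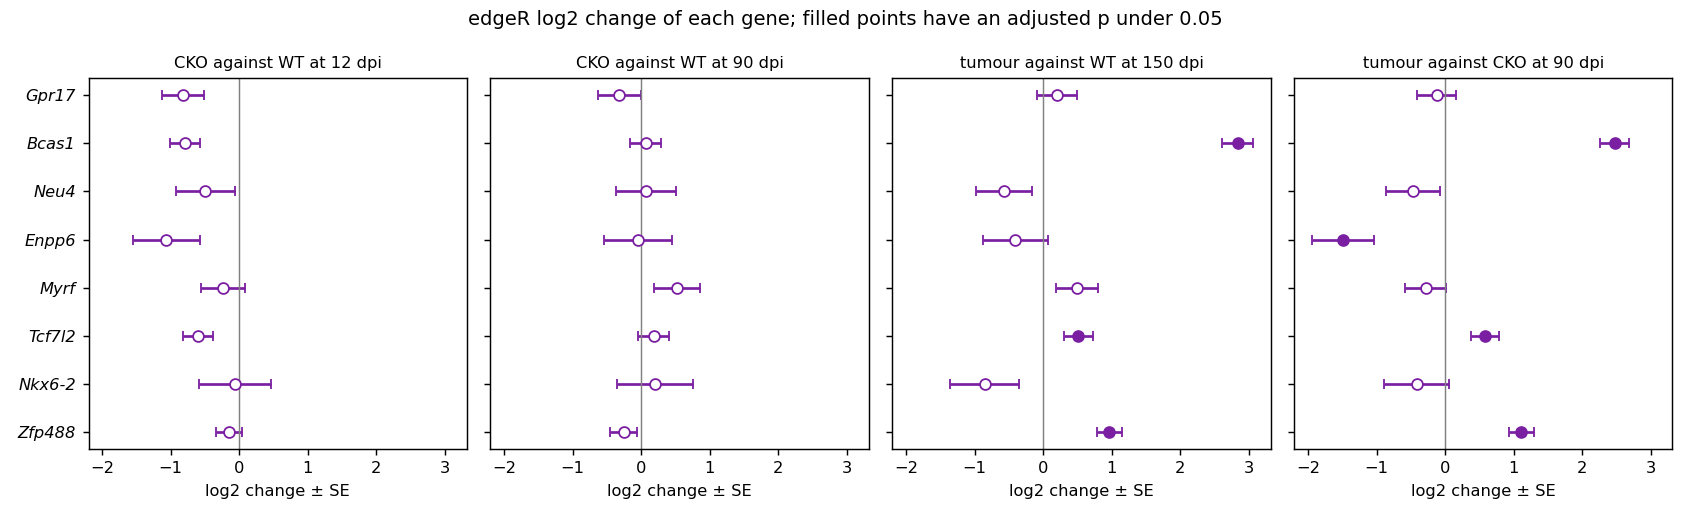
edgeR log2 difference ± SE of each gene in 4 bulk comparisons, with filled points for an adjusted p under 0.05. All 8 points lie left of 0 at 12 dpi without passing, and Bcas1 stands at 2.84 and 2.48 in the tumour comparisons.

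Tumours differed from WT cells of the same time mainly in Bcas1. Against WT at 150 dpi 3 of the 8 genes rose, Bcas1, Zfp488 and Tcf7l2, and 0 fell. Since 46.2% of all genes passed in this comparison, 3 of 8 is below the background share. The median of the 8 was 0.35 on the log2 scale against 0.06 over all genes. Under RLE size factors, another scaling, the median of all genes moved to 0.22 and the share of called genes that were higher from 52.6% to 62.1%, and the same 3 of the 8 were called.

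Bcas1 was at 578, 854, 398, 231, 819, 514 and 830.1 CPM in tumours Tumor_16713, Tumor_16839, Tumor_16840, Tumor_16844, Tumor_21256, Tumor_21349 and Tumor_21354, and at 75.5 to 95.9 CPM (median 82.3) in the 6 WT animals. The lowest tumour lay well above the highest WT animal, and above every animal of the other groups. The log2 rise was 2.84 (SE 0.23, edgeR adjusted p 6.8e-13), between 2.76 and 3.02 over all alternatives and left-out animals.

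Zfp488, the Olig2 partner, was at 145, 82.4, 104, 118, 197, 86.9 and 147 CPM in the same order of tumours and at 49.1 to 83.2 CPM (median 66.2) in WT animals. The groups met only where Tumor_16839 lay just under the highest WT animal. The log2 rise was 0.97 (SE 0.19, edgeR adjusted p 5.5e-05). Tcf7l2 was at 37.0, 42.6, 27.3, 32.9, 62.4, 30.1 and 55.1 CPM in tumours and at 18.0 to 48.2 CPM (median 24.3) in WT animals, so that the groups overlapped over most of their range.

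The log2 rise of Tcf7l2 was 0.51 (SE 0.21, edgeR adjusted p 0.0425), close to the threshold, and its adjusted p ran from 0.0038 to 0.117 over the alternatives. It was not called without a filter on low counts (0.0678), without the sex covariate (0.0647), with only the compared groups fitted (0.0547), or without Tumor_16713 (0.0533), Tumor_21256 (0.0921) or Tumor_21354 (0.0575) or WT_21590 (0.107), WT_22062 (0.117) or WT_22064 (0.0548).

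The other 5 genes did not pass against WT, and 3 of them depended on single animals. Enpp6 was at 9.22, 5.39, 41.4, 7.21, 5.16, 3.82 and 73.3 CPM in tumours and at 13.6 to 38.5 CPM (median 29.2) in WT animals. That places 5 tumours below and 2 above every WT animal (log2 -0.40, SE 0.47, edgeR adjusted p 0.511). Without Tumor_21354 it fell by 1.26 on the log2 scale (adjusted p 0.0116, with 0.0116 to 0.801 over the alternatives).

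Neu4 was at 172, 54.7, 31.4, 57.9, 122, 1.98 and 60.0 CPM in tumours and at 59.8 to 152 CPM (median 102) in WT animals. It was thus nearly absent from Tumor_21349, and higher in Tumor_16713 than in any WT animal. The log2 difference was -0.57 (SE 0.41, edgeR adjusted p 0.264), and -0.98 without Tumor_16713 (adjusted p 0.0398, with 0.0398 to 0.593 over the alternatives). Myrf was at 28.7, 10.1, 25.6, 71.2, 85.8, 14.8 and 51.1 CPM in tumours and at 17.7 to 52.5 CPM (median 24.5) in WT animals. Tumours lay on both sides of the WT range (log2 0.49, SE 0.31, edgeR adjusted p 0.192). It was called without Tumor_16839 (0.68, adjusted p 0.0372) or WT_21593 (0.77, 0.0473), with 0.0372 to 0.499 over the alternatives.

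Gpr17 was at 299, 366, 157, 446, 96.8, 57.7 and 344 CPM in tumours and at 158 to 364 CPM (median 193) in WT animals. Its tumours spread on both sides of the WT range, with a log2 difference of 0.20 (95% interval -0.37 to 0.78, edgeR adjusted p 0.608). Lims2, which overlaps Gpr17 on the other strand, rose by 1.30 (SE 0.39, edgeR adjusted p 0.0063). Nkx6-2 stayed low, at 0.215 to 2.71 CPM in tumours and 0 to 4.84 CPM in WT animals (log2 -0.86, interval -1.84 to 0.13, edgeR adjusted p 0.166).

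Against CKO cells at 90 dpi, a comparison that shares its tumours with the one above and differs in time as well, 4 of the 8 genes passed where 49.1% of all genes did, a share close to the background. Bcas1 rose by 2.48 (SE 0.21, edgeR adjusted p 3.1e-12), Zfp488 by 1.11 (SE 0.18, 2.7e-06) and Tcf7l2 by 0.58 (SE 0.20, 0.0149). Enpp6, at 34.0 to 104 CPM (median 52.4) in CKO animals, fell by 1.49 (SE 0.45, 0.0063).

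Only the 2 highest tumours, Tumor_16840 and Tumor_21354, lay within the CKO range of Enpp6. With only the compared groups fitted, Enpp6 was at -1.55 with an edgeR adjusted p of 0.0613, which does not pass (1.1e-05 to 0.0613 over the alternatives). Neu4 (-0.47, SE 0.39), Myrf (-0.28, SE 0.29) and Nkx6-2 (-0.41, SE 0.47) did not pass, and Neu4 was called at -0.96 without Tumor_16713 (edgeR adjusted p 0.0444, with 0.0444 to 0.649 over the alternatives). The log2 difference of Gpr17 was -0.12 (SE 0.29) and turned to small positive values under RLE size factors and DESeq2.

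Whether the genotype difference changed from 90 to 150 dpi was tested directly, with tumours as the mutant group at 150 dpi. Of the 8 genes 2 passed, both upwards, where 30% of all genes passed in either direction (47.2% of these upwards, 57.3% under RLE size factors and 58.6% under DESeq2): Bcas1 by 2.77 (SE 0.31, edgeR adjusted p 5.6e-09) and Zfp488 by 1.22 (SE 0.27, 5.9e-04). Tcf7l2 (0.33, SE 0.31), Gpr17 (0.53, SE 0.43), Enpp6 (-0.36, SE 0.69) and Neu4 (-0.63, SE 0.60) did not pass. Both calls were kept under all alternatives and without any single animal.

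Tumours differed more from each other in some of these genes than in others. Between the lowest and the highest tumour Neu4 differed 86.7-fold, Enpp6 19.2-fold, Nkx6-2, at low counts, 12.6-fold, Myrf 8.50-fold and Gpr17 7.72-fold. Bcas1 (3.70-fold), Zfp488 (2.39-fold) and Tcf7l2 (2.29-fold) differed less. Every tumour had 2 libraries, whose median ratio was 1.44 for Neu4, 2.25 for Enpp6, 1.74 for Myrf and 1.18 for Gpr17. The largest ratio between libraries of 1 tumour was 1.79 for Neu4 and 5.76 for Enpp6.

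No tumour was high in all of the genes. Tumor_21349 had the lowest Gpr17, Enpp6 and Neu4 of the 7, with Bcas1 at 514 CPM. Tumor_21354 had the highest Enpp6 and Nkx6-2, and lay above the WT mean at 150 dpi in every gene but Neu4 (log2 ratio -0.80). Tumor_21256 had the highest Tcf7l2, Myrf and Zfp488 next to the second lowest Gpr17. Tumor_16844, with the lowest Bcas1 of the 7, had the highest Gpr17.

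**Figure D3:**
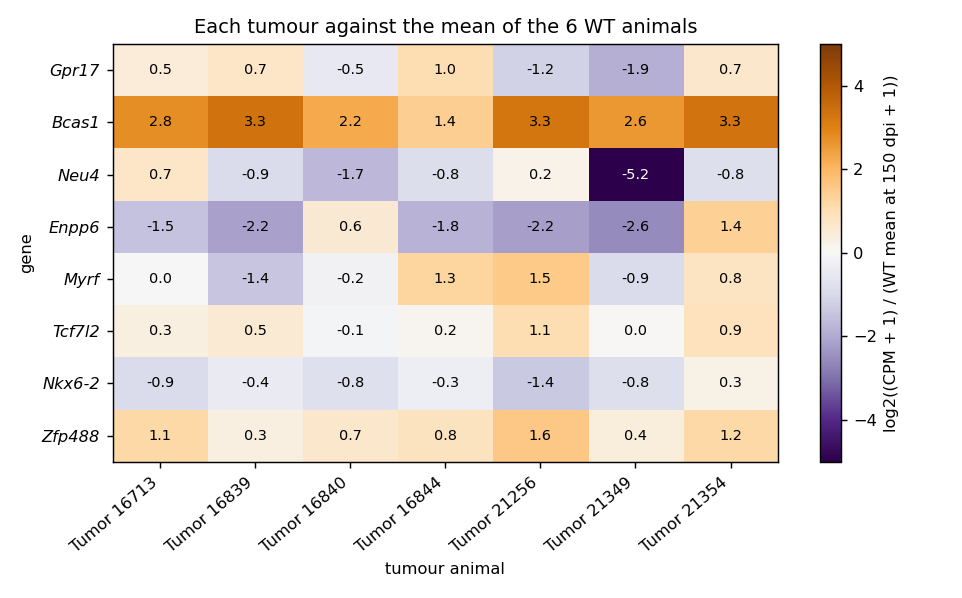
Log2 ratio of each gene in each tumour (columns) to the mean of the 6 WT animals at 150 dpi, with 1 CPM added, orange for higher and purple for lower. The Bcas1 row is orange in all 7 tumours (1.44 to 3.33), while Neu4 runs from -5.15 to 0.71 and Enpp6 from -2.57 to 1.38.

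Across animals, after removal of the group means, pairs of the 8 genes correlated at -0.07 to 0.63 in the 30 animals without tumours (28 pairs, median 0.32), highest between Gpr17 and Zfp488. Over the 7 tumours they ran from -0.25 to 0.84 (median 0.19), highest between Myrf and Zfp488. These are descriptions, since the values of 1 animal share a library, its depth and its mixture of cells.

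Other lists of the lineage are given for tumours against WT by their counts, beside 46.2% of all genes called. Among 19 OPC genes 17 rose and 0 fell (median 1.501), including the transcription factor gene Sox6 (2.77). Among 15 other genes of committed and newly formed oligodendrocytes 9 rose and 1 fell (median 1.24), with Arpc1b, an actin-branching subunit, at 3.74 and Tmem2, a hyaluronidase of the cell surface, at -1.36. RLE size factors and DESeq2 each called 12 of these higher and 1 lower. Among 17 genes of myelinating oligodendrocytes 2 rose, Cnp (0.71) and the apolipoprotein gene Apod (1.00), and 7 fell (median -0.91), with Ermn at -3.79 and Mobp at -3.26. The 8 genes, with 3 called higher, ranged from -0.86 to 2.84. Their median of 0.35 lay between those of the myelinating and the other 2 lists, as did the median of all genes (0.06).

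Among 18 regulators of oligodendrocyte differentiation 7 rose and 3 fell, with the chromatin remodeller Chd7 at 2.01, the factor Sox8 at 1.49, Zeb2 at -0.80 and the receptor Gpr37, which restrains differentiation, at -2.12. Tcf7l2 acts in Wnt signalling, and of 8 genes induced by that pathway 3 rose and 1 fell, among them the feedback inhibitor Nkd1 (2.57), the receptor-degrading ligase Rnf43 (1.93) and the R-spondin receptor Lgr5 (-1.76). Against CKO cells at 90 dpi 17 of 19 OPC genes rose, 7 of the 15 other committed genes rose and 2 fell, and 9 of 17 myelinating genes fell with 0 higher. With RLE size factors 11 committed genes rose and 1 fell, and 1 myelinating gene rose.

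**Figure D4:**
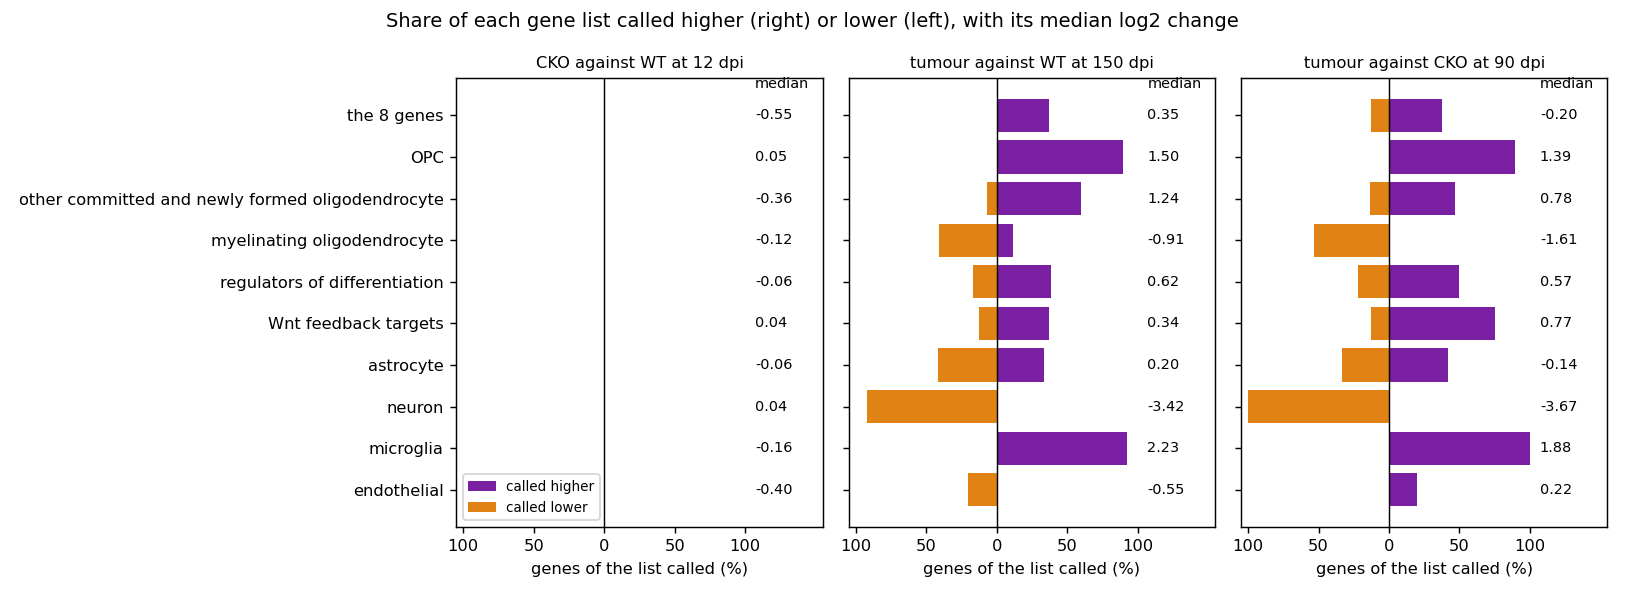
Share of each list of genes called higher (purple, to the right) or lower (orange, to the left) by edgeR in 3 bulk comparisons, with the list's median log2 difference at the right edge of each panel. No list has a called gene at 12 dpi, and in tumours against WT 17 of 19 OPC genes are called higher, while 7 of 17 myelinating genes are called lower and 2 higher.

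Markers of other cells also moved between these groups. Neuron markers (12 genes) summed to 324 to 1605 CPM in tumours and to 8665 to 11971 CPM in WT animals at 150 dpi, and 11 of 12 fell. Microglia markers (14 genes) summed to 400.05 to 1428 CPM against 174 to 253 CPM, and 13 of 14 rose. Astrocyte markers (12 genes) summed to 1349 to 4549.6 CPM against 3470.2 to 4923 CPM, and endothelial markers (10 genes) to 110.4 to 256 CPM against 234 to 329 CPM. None of the markers was at 0 in all animals of a group. The summed level of the 8 genes was 710.4 to 1564 CPM in tumours and 459.7 to 742 CPM in WT animals. The part of these cells in the levels of the 8 genes was not tested.

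In the small libraries of CKO cells the question was how often a handful of cells carries each gene, and how this differs between 12 and 90 dpi. Zfp488 had a count above 0 in 54 of 56 10-cell libraries at 12 dpi (96.4%, exact binomial 95% interval 87.7 to 99.6%) and in 56 of 56 at 90 dpi. Bcas1 was detected in 25 of 56 libraries (44.6%, 31.3 to 58.5%) and in 46 of 56 (82.1%, 69.6 to 91.1%). Enpp6 was detected in 5 of 56 (8.93%, 2.96 to 19.6%) and in 31 of 56 (55.4%, 41.5 to 68.7%).

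Every gene was detected in more 10-cell libraries at 90 than at 12 dpi. The counts of 56 were 22 and 33 for Gpr17, 25 and 35 for Neu4, 23 and 38 for Tcf7l2, 10 and 29 for Myrf, and 6 and 19 for Nkx6-2. A library held a median of 2 of the 8 genes at 12 dpi and of 5 at 90 dpi. A median of 7550 genes of any kind was detected in 10-cell libraries at 12 dpi and of 10109.5 at 90 dpi, and the median sum of myelinating genes was 740.6 and 2316 CPM and that of microglia markers 224 and 601 CPM. The part of these in the higher shares was not tested. Intervals and floors here cover counting error only.

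In pool-and-split libraries, where the median number of detected genes was 8690.5 at 12 and 8739 at 90 dpi, the share was also higher at 90 dpi for each gene but Zfp488, which all 40 libraries held at both times. Enpp6 was detected in 11 of 40 libraries at 12 dpi and in 28 of 40 at 90 dpi, Myrf in 11 and 24, Neu4 in 14 and 28, Tcf7l2 in 15 and 26, Bcas1 in 28 and 32, Nkx6-2 in 9 and 11, and Gpr17 in 17 and 18. Libraries of a set may share an animal, so these shares were not tested, and the levels of sets were.

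**Figure D5:**
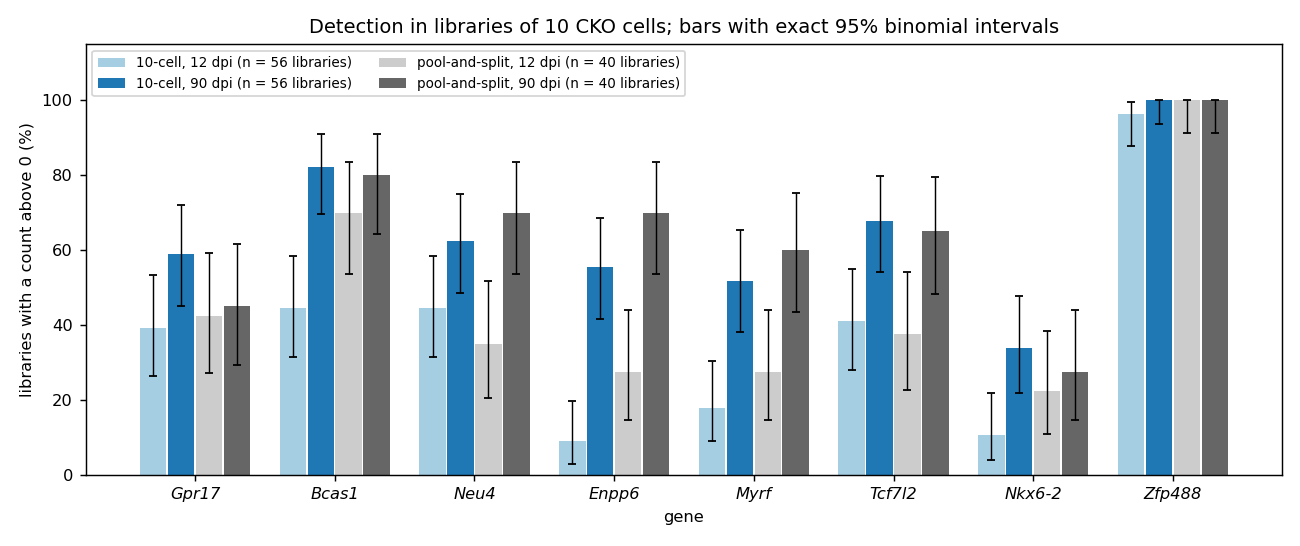
Share of libraries of 10 CKO cells with a count above 0 for each gene, with exact 95% binomial intervals, for 56 10-cell (blue) and 40 pool-and-split (grey) libraries at 12 dpi (light) and 90 dpi (dark). Zfp488 is at or above 96.4% throughout, and Enpp6 goes from 8.93% to 55.4% in 10-cell libraries.

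Summed per set, no gene passed between 90 and 12 dpi in either kind of library (0 of 8 with edgeR, 2 in 10-cell and 1 in pool-and-split sets at an unadjusted p under 0.05, where 0% of all genes passed in 10-cell and 0% in pool-and-split sets, and 1034 and 1050 genes had an unadjusted p under 0.05). Bcas1 in 10-cell sets stood at 43.4, 38.4, 23.9 and 6.67 CPM at 12 dpi and at 117, 64.9, 68.5 and 73.9 CPM at 90 dpi for the sets female 1, female 2, male 1 and male 2. Every 90 dpi set lay above every 12 dpi set (log2 1.69, SE 0.55, edgeR p 0.0135, adjusted p 0.648). The share of all genes that separated in this way was not worked out. In pool-and-split sets its values overlapped, at 134, 15.9, 59.4 and 72.4 CPM and 71.2, 192, 228 and 49.4 CPM (log2 0.94, 95% interval -0.53 to 2.41).

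Enpp6 in 10-cell sets stood at 22.3, 0, 0 and 0.953 CPM at 12 dpi and at 78.0, 22.6, 25.0 and 75.1 CPM at 90 dpi. Every 90 dpi set lay above every 12 dpi set, though the highest set at 12 dpi, female 1, came close to the lowest at 90 dpi, and 84.6% of the gene's summed level at 12 dpi came from 1 library. The edgeR adjusted p was 0.722. In pool-and-split sets Enpp6 overlapped, at 14.2, 68.5, 49.8 and 20.4 CPM and 13.4, 47.0, 309 and 254 CPM. Nkx6-2 was at 0.947, 0.602, 0.457 and 0 CPM and 32.8, 10.6, 11.3 and 0.521 CPM in pool-and-split sets (edgeR adjusted p 0.598), and DESeq2 called it (adjusted p 0.0115, with 0.0115 to 0.859 over the alternatives) as 1 of 523 genes. In 10-cell sets DESeq2 called 273 genes and 0 of the 8. The remaining genes overlapped between the times in both kinds of set. Without the share over all genes, separation or overlap of the sets is only a description. Fitted levels were higher at 90 dpi for 6 of the 8 genes in 10-cell and for 7 in pool-and-split sets. Lower were Tcf7l2 (log2 -1.52, SE 1.33) and Zfp488 (-0.65, SE 0.47) in 10-cell sets, and Zfp488 (-0.48, SE 0.57) in pool-and-split sets.

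Single libraries differed widely in these genes. No gene of the 8 reached 100 CPM in 38 of 56 10-cell libraries at 12 dpi and in 25 of 56 at 90 dpi. At least 2 of the genes did so together in 5 and 9 of 56 libraries, and in 7 and 14 of 40 pool-and-split libraries. For Tcf7l2 at 12 dpi 1 10-cell library at 1099.5 CPM gave 80.6% of the sum, against 143 CPM in the next. Bcas1 reached 676 and Enpp6 958 CPM in their highest 10-cell libraries at 90 dpi.

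The spread between 10-cell libraries was set against that of pool-and-split libraries, meant to carry the measurement error without differences between groups of cells. Libraries, which may share an animal, were the replicates of this test. At 12 dpi 2 of the 8 genes were detected in enough libraries (50%) to be tested and 0 passed with limma (1, Zfp488, at an unadjusted p under 0.05), where 0.0252% of all genes did. At 90 dpi 7 were tested and 0 passed (1, Myrf, unadjusted), where 0.701% did. An unadjusted limma p under 0.05 was reached by 749 of 7926 genes at 12 dpi and by 1335 of 9704 at 90 dpi. Of the 68 genes that passed at 90 dpi 26 spread more and 42 spread less in 10-cell than in pool-and-split libraries. Over all genes the median ratio of the SDs, 10-cell over pool-and-split, was 0.935 at 90 dpi and 1.07 at 12 dpi. Pool-and-split libraries thus gave no lower floor of the spread at 90 dpi. With deviations from the mean in place of the median 2 of the 7 passed, Neu4 and Myrf, where 7.19% of all genes did. In log2(CPM + 1) the SD of Zfp488 at 12 dpi was 1.957 in 10-cell and 1.07 in pool-and-split libraries, larger in 4 of 4 sets (limma adjusted p 0.449).

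At 90 dpi the SD of Neu4 was 2.92 against 1.95 (larger in 4 of 4 sets, adjusted p 0.411 in limma) and that of Gpr17 2.36 against 1.65 (4 of 4, 0.468). The opposite held for Myrf, at 1.89 in 10-cell and 3.14 in pool-and-split libraries (0 of 4 sets, limma adjusted p 0.264). Mean levels in the same order were 46.2 and 15.7 CPM for Neu4, 15.4 and 3.70 for Gpr17, and 12.0 and 65.8 for Myrf. For these genes the larger SD went with the higher level, unlike Zfp488 at 12 dpi (45.7 and 80.9 CPM). The part of level and detection in these SDs was not tested. With deviations from the mean, which raised the calls over all 9704 genes from 68 to 698, the adjusted p was 0.0170 for Neu4 (0.0170 to 0.736 over the alternatives) and 0.0133 for Myrf (0.0133 to 0.620 over the alternatives). Enpp6, Bcas1, Tcf7l2 and Zfp488 differed by less, with SDs of 3.04 and 3.30, 3.01 and 3.39, 1.95 and 1.95, and 1.37 and 1.38.

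Within sets, pairs of the 8 genes correlated at -0.10 to 0.28 over the 10-cell libraries (28 pairs, Pearson r, median 0.11) and at -0.24 to 0.28 over the 80 pool-and-split libraries (median 0.05). The highest pair in 10-cell libraries was Gpr17 with Neu4, both detected in 40 libraries. Against the mean of OPC genes Neu4 (r 0.51) and Gpr17 (0.46) were the highest of the 8 in 10-cell libraries, and stood at 0.15 and 0.05 in pool-and-split libraries. Against the mean of myelinating genes Myrf (0.41), Enpp6 (0.36) and Bcas1 (0.35) were the highest, and Gpr17 was at -0.04. In pool-and-split libraries these 4 stood at 0.26, 0.33, 0.18 and 0.17. Points share the depth and the number of detected genes of a library, and the correlations are given as a description.

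The mean of the 4 members detected in at least 50% of 10-cell libraries (Bcas1, Neu4, Tcf7l2 and Zfp488) was most like Sp3 (r 0.52), Rnf34 (0.49), Olfr1505 (0.49), Atat1 (0.49), Dnajc11 (0.49), Idh1 (0.48), Clcn6 (0.48), Nolc1 (0.48), Col9a3 (0.48) and Ugdh (0.47) among 9124 genes over all 10-cell libraries. It correlated with the mean of the other committed genes at 0.52 and with that of the regulators at 0.47, where the same measure over pool-and-split libraries gave 0.16 and 0.18. The means of OPC, neuron and myelinating genes stood at 0.41, 0.32 and 0.32 (0.25, 0.21 and 0.17 in pool-and-split libraries). Those of microglia, astrocyte and endothelial genes were at 0.19, 0.08 and 0.03 in 10-cell libraries. None of the 10 nearest genes in 10-cell libraries was among the 10 nearest in pool-and-split libraries. Among single genes, the nearest to Zfp488 were Olfr90 (0.63), Gm13722 (0.63) and Olfr1247 (0.61), and those to Enpp6 Atmin (0.45) and the myelin lipid enzyme gene Ugt8a (0.40). Olfr90, an odorant receptor gene, had a count in 99.1% of the 10-cell libraries and in 100% of the others. In bulk it was at a median of 14.1 CPM in tumours and 19.5 CPM in WT animals at 150 dpi, where Zfp488 rose.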

How the data were processed

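Laser-captured cells of mouse brain were sequenced as bulk RNA after T7 linear amplification, or as 10 cells after PCR amplification and Nextera XT tagmentation, per the labels' protocols. The authors deposited RSEM expected counts per gene, unscaled, from Bowtie2 alignments to GRCm38 per the submitters' processing notes. Versions and use of strand are not given in the sources used here. The members and lists were chosen with earlier results of these data known.

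Expected counts were rounded, libraries of 1 animal summed, and 16349 genes passing filterByExpr (minimum count 10, total 15) tested in edgeR 4.0.16 (R 4.3.3; TMM, quasi-likelihood F test, sex as covariate, all 37 animals in 1 fit, Benjamini-Hochberg over all genes, threshold 0.05). An SE is the log2 difference over the root of F, and 95% intervals are normal approximations from it. CPM of bulk animals and of sets use TMM-scaled totals, and CPM of single libraries use the unscaled library total. Lengths are summed exons. Small libraries were summed to 4 sets per time for the same test. Spread used log2(CPM + 1) on library totals, centred per set and kind, absolute deviations and limma 3.58.1 with set as covariate. Set numbers were not used to pair the samples, since the labels do not say whether they pair. The same set name at both times correlated at -0.04 to 0.02, which with 4 noisy sets per time cannot settle this. Likeness used values centred per set. The biological coefficient of variation was 0.418 in bulk, 0.955 in 10-cell and 1.08 in pool-and-split sets. Scripts were tested on simulated data. Named genes are the 8 members, of other lists at most the 2 largest rises and falls called (where none is, the 2 largest changes), the 10 genes most like the members and the 3 most like each member. Nf1 and Trp53 check the labels, Pdgfra the cell type and Lims2 an overlap. Alternatives included DESeq2 1.42.0, other scaling and filters, and leaving out each animal or set. One gene of the OPC list is not reported here by name.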

Additional observations from a re-analysis of the deposited data

Results flagged for a closer look

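Of 80 groups of 4 to 7 animals or sets checked gene by gene, 6 held a value far from the others. The cut-offs give about 1 in 20 by chance for normally distributed values. For the unlogged CPM used here the share by chance was not worked out. Enpp6 at 12 dpi was at 79.4 CPM in CKO_21724, with the next CKO animal at 43.5 CPM. Myrf at 12 dpi was at 52.0 CPM in CKO_22364, with the next at 37.4 CPM. Nkx6-2 at 12 dpi was at 4.26 CPM in WT_22281, with the next at 2.32 CPM. Among 10-cell sets at 12 dpi, Enpp6 was at 22.3 CPM in set female 1, with the next set at 0.953 CPM, and Tcf7l2 at 132 CPM in set male 2, with the next at 15.5 CPM. Among pool-and-split sets at 90 dpi, Tcf7l2 was at 34.6 CPM in set male 2, with the next at 7.03 CPM.

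The effect of genotype differed between 90 and 150 dpi for 2 of the 8 genes by the test of that difference in edgeR, which 30% of all genes passed. The log2 difference between the effects was 2.77 for Bcas1 and 1.22 for Zfp488, with tumours as the mutant group at 150 dpi.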

How the results depend on the processing

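In bulk, 9 called results had 409 values under the alternatives, of which 399 kept direction and call and 10 lost the call with no change of direction: 9 of Tcf7l2 in tumours against WT and 1 of Enpp6 in tumours against CKO. Of 2839 values of the 63 results not called, 10 became called and 73 changed sign. The number of the 8 genes called ran from 2 to 4 in tumours against WT and from 4 to 5 against CKO cells when single animals were left out. With only the compared groups fitted, 4 of the 8 were called at 12 dpi between CKO and WT, and 1 in WT cells between 90 and 12 dpi, where 92 genes in place of 3, and 295 in place of 1, were called in all. Under DESeq2 1 of the 8 was called in pool-and-split sets, along with 523 genes in all in place of 0, and with deviations from the mean 2 of 7 in the spread at 90 dpi, along with 698 genes in all in place of 68. DESeq2 called 13 genes in all at 12 dpi and 18 in place of 8 at 90 dpi between the genotypes. With set names as a replicate block 0 of the 8 were called in 10-cell and 0 in pool-and-split sets. A median shift of all genes under RLE size factors from 0.12 to 0.29 in tumours against CKO cells changed no call of the 8. Low counts limit Nkx6-2 in bulk.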

Other observations

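The bulk and small libraries of CKO cells, made by different amplification, ranked the 8 genes differently. Gpr17 had a mean of 197 CPM in bulk at 12 dpi, 13.6 CPM over 10-cell and 1.67 CPM over pool-and-split libraries. Zfp488 had means of 57.1, 45.7 and 80.9 CPM in the same order. Myrf had a mean of 0.873 CPM in 10-cell and of 34.6 CPM in pool-and-split libraries at 12 dpi, and 66.7% of the latter came from 1 library. The bulk means use TMM-scaled totals and those of the small libraries unscaled totals. These kinds of library were not tested against each other for level.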
